A study of Rattus norvegicus with 14 samples.

Results

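Ybx2, Tex101 and Tle6, a set of 3 genes grouped under the heading of germ cell and oocyte genes, were followed over 14 Affymetrix arrays of fetal rat gonads. Each gene was represented by 1 probe set, a group of short probes for 1 transcript, and all probe sets carrying 1 of the 3 symbols in the platform annotation were taken. That gave 3 of 10411 genes, and 3 of 15866 probe sets tested. The arrays formed 7 groups of 2. Fresh ovaries and testes were taken on embryonic days 13 (E13), 14 (E14) and 16 (E16). In the last group testes of E13 spent 3 days in organ culture, on filters over CMRL medium with penicillin, streptomycin, insulin, glutamine, transferrin and albumin. Every array held RNA of an independent pool of 20 to 40 gonads, so all cell types of the gonad contributed, and in such bulk samples fewer cells of a type and less RNA per cell cannot be told apart. The strain, and any treatment beyond the culture, are not stated in the labels.

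The 3 genes serve different steps of gamete formation. Ybx2 (also known as MSY2) is a Y-box protein of germ cells that binds DNA and RNA and keeps messenger RNA stored and untranslated. Tex101 is a surface protein of germ cells, held to the membrane by a lipid anchor and belonging to the Ly6 and uPAR family, which is needed in the adult for sperm to migrate through the oviduct. Tle6 is a relative of the Groucho/TLE corepressors and part of the subcortical maternal complex of the oocyte, together with Ooep, Nlrp5, Khdc3 and Zbed3. In the fetal gonad, germ cells of both sexes first share a program; those of the ovary then enter meiosis, while those of the testis stop dividing.

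The 3 genes were chosen with their values on these arrays known, so their levels are a description and carry no test. Tests below concern other genes. Their lists were also drawn up with earlier results of these data known, which limits what the counts and adjusted p can show. Values are the deposited intensities, and differences are given on the scale of log2(intensity + 16), where the added 16 damps the noise of dim probe sets and understates changes at low signal. The spread of each gene between the 2 arrays of a group was summarised as a residual SD over the 7 groups: 0.25 for Ybx2, 0.37 for Tex101 and 0.42 for Tle6, each with 7 degrees of freedom.

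Some arrays stood apart. The median intensity lay between 59.6 and 69.2, and replicate arrays had correlations of r = 0.949 to 0.982. Xist, the RNA of the inactive X chromosome in female cells, was low for an ovary in E16 ovary replicate 2 (12.8), and high for a testis in E13 replicate 1 (36.2), E14 replicate 1 (269) and cultured replicate 1 (151). Actin signal from the 3′ end over that from the 5′ end, a measure of RNA breakdown, reached 3.34 in replicate 1 of E16 ovary and 2.97 in replicate 2 of the cultured testes, and lay at 1.47 to 2.13 elsewhere. Chip labels also differed between the 2 arrays of every group. From their form they were sorted into 3 chip periods, which are not known to be hybridisation batches. The 2 arrays of a group were of different chip periods, except in E13 ovary, where both were of period 3.

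Tex101 was higher at E16 than at E13 in both sexes, by more in the ovary. It read 79.8 and 72.9 in the E13 ovary arrays, 122 and 112.5 at E14, and 378.5 and 285 at E16, replicates 1 and 2 in that order. In testis it read 53.3 and 97.0 at E13, 81.6 and 120 at E14, and 124 and 255 at E16. Cultured testes read 87.8 and 71.2. Both E16 ovary arrays lay above every other array, and both E16 testis arrays lay above every array of E13, of E14 and of the cultured testes.

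The mean of Tex101 was 332 ± 66.3 (SD, n = 2) in E16 ovary and 76.4 ± 4.9 in E13 ovary, a ratio of 4.34 and a difference of 1.90 on the log2 scale. In testis the mean was 190 ± 92.7 at E16 and 75.2 ± 30.9 at E13, a difference of 1.14. The 2 E16 testis arrays were far apart, and the difference from E13 was 0.66 without E16 testis replicate 2 and 1.62 without replicate 1. Leaving out the 2 arrays of the highest actin ratio gave an ovary difference of 1.70, and leaving out the 4 with discordant Xist gave 2.10. The ovary arrays left in that last fit are those of chip period 3, so the ovary difference there was the same 2.10. Within chip period 1 the testis difference was 1.26.

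Between the sexes Tex101 was alike at E13 (log2 difference of testis minus ovary -0.06) and close at E14 (-0.21), with overlapping arrays at both ages. At E16 the testis arrays lay below the ovary arrays, with a difference of -0.82. It was -0.34 without E16 testis replicate 1 and -1.30 without replicate 2, and within chip period 1 it was -0.15. Over the 7 groups the order of means was E16 ovary, E16 testis, E14 ovary, E14 testis, cultured testis, E13 ovary and E13 testis, and from E14 ovary downwards neighbouring groups overlapped.

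In organ culture no change of Tex101 beyond its spread was seen. Cultured testes had a mean of 79.5 ± 11.7 (SD, n = 2), against 75.2 ± 30.9 in the fresh E13 testes, a log2 difference of 0.10 with overlapping arrays. It was -0.25 without E13 testis replicate 1 and 0.46 without replicate 2. With the 4 Xist-discordant arrays left out it was -0.37. Fresh E16 testes, 3 days older than E13, stood at 190 ± 92.7, a difference of -1.04 for cultured minus fresh E16 testis, which was -0.56 without E16 testis replicate 2 and -1.51 without replicate 1. The cultured and the E16 testis arrays did not overlap.

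**Figure D1:**
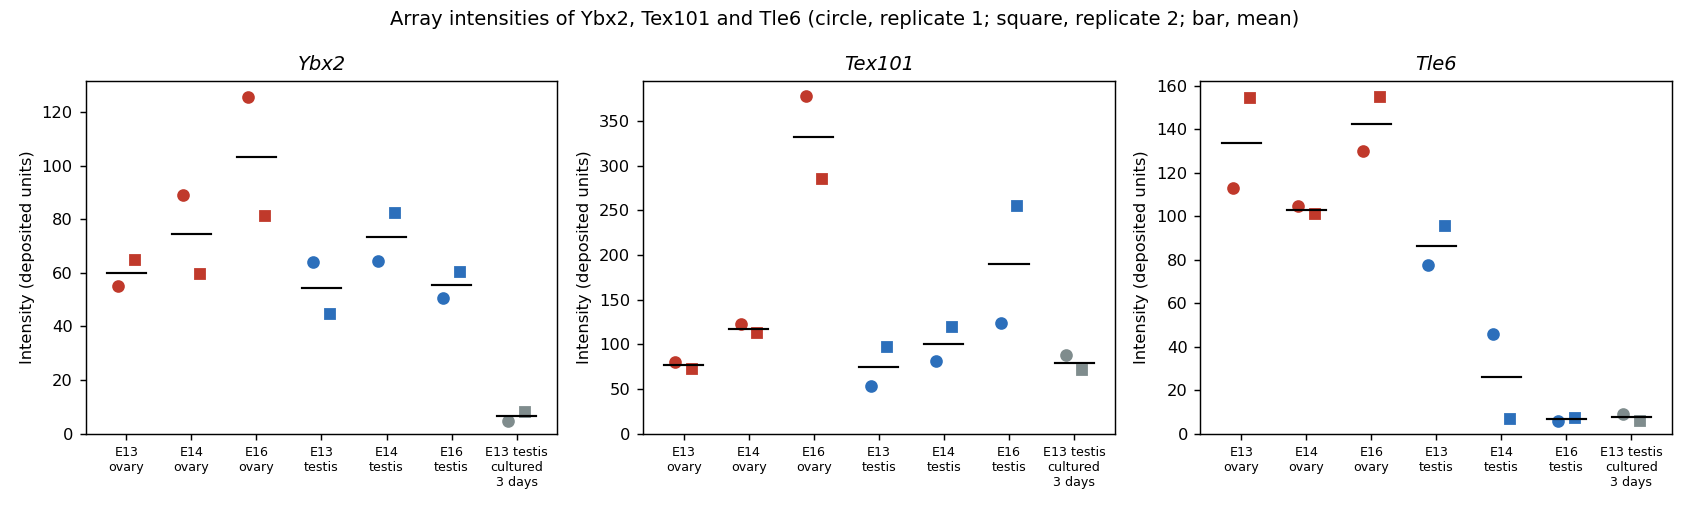
Intensity (deposited units, linear axes from 0) of Ybx2, Tex101 and Tle6 in each of the 14 arrays, by group; circles are replicate 1, squares replicate 2 and bars the mean of 2 arrays. Tex101 is highest in E16 ovary (378.5 and 285), Tle6 is under 10 in E16 and cultured testis, and Ybx2 is under 10 in the 2 cultured testis arrays and at 44.8 or more in the 12 others.

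Tle6 was at 101 or more in every ovary array and under 10 in the E16 and cultured testes. In ovary it read 113 and 155 at E13, 105 and 101 at E14, and 130 and 155 at E16, replicates 1 and 2 in that order. In testis it read 77.7 and 95.4 at E13, 45.8 and 6.6 at E14, and 6.0 and 7.1 at E16. Cultured E13 testes read 9.2 and 5.9. All 6 ovary arrays lay above all 8 testis arrays, and the E16 and cultured testis arrays were at the lowest values.

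At E16 the mean of Tle6 was 6.6 ± 0.8 (SD, n = 2) in testis and 142.5 ± 17.4 in ovary, a log2 difference of testis minus ovary of -2.81. The difference was -0.54 at E13 and -1.67 at E14. At E14 the replicates disagreed: without replicate 1, an array with high Xist for a testis (269), the difference was -2.40, and without replicate 2 it was -0.94. Within chip period 1, which held 1 array of each sex at E14 and at E16, the differences were -2.37 and -2.89. Within chip period 3 the E13 difference was -0.66.

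From E13 to E16 Tle6 differed by -2.18 in testis and by 0.09 in ovary, where the arrays of the 2 ages overlapped. Cultured testes had a mean of 7.6 ± 2.3 against 86.6 ± 12.5 (SD, n = 2) in fresh E13 testes, a difference of -2.12. Cultured and fresh E16 testes overlapped, with a difference of 0.06. Both read under 10, where no detection calls were used and the values may be background, so their likeness shows no shared level. The size of the larger differences depended on the added constant: with 1 in its place the E16 sex difference was -4.25, and with 64 it was -1.55.

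Ybx2 was alike in fresh E13 and E16 testis and somewhat higher at E14. Its mean was highest in E16 ovary and very low in culture. In testis it read 64 and 44.8 at E13, 64.5 and 82.3 at E14, and 50.5 and 60.2 at E16. In ovary it read 55.1 and 64.7 at E13, 89.1 and 59.6 at E14, and 126 and 81.1 at E16. Cultured testes read 4.8 and 8.1. Both cultured arrays lay far below every fresh array, the lowest of which read 44.8, and may be at background.

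The mean of Ybx2 in cultured testis was 6.5 ± 2.3 (SD, n = 2), against 54.4 ± 13.6 in fresh E13 testis and 55.4 ± 6.9 in fresh E16 testis. The log2 differences were -1.64 and -1.67. Cultured testis replicate 2, the array with an actin ratio of 2.97, read 8.1, and replicate 1, with a ratio of 1.66, read 4.8. Within chip period 1 the differences were -1.34 and -1.66, and against E16 testis within chip period 2 it was -1.68. Without the 4 arrays with discordant Xist the difference from fresh E13 testis was the same -1.34. It rests on the same 1 cultured and 1 fresh array as within chip period 1.

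In ovary Ybx2 differed by 0.63 between E16 (103 ± 31.4) and E13 (59.9 ± 6.8; SD, n = 2), and the arrays did not overlap. The size depended on E16 ovary replicate 1, the array with an actin ratio of 3.34: without it the difference was 0.36, and without replicate 2 it was 0.90. The sex difference at E16 was -0.72 for testis minus ovary, -0.45 without E16 ovary replicate 1, -0.99 without replicate 2 and -0.35 within chip period 1. At E13 (-0.12) and E14 (0.00) the arrays of the sexes overlapped. Over the 7 groups the order of means was E16 ovary, E14 ovary, E14 testis, E13 ovary, E16 testis, E13 testis and cultured testis, and each neighbouring pair overlapped except the last.

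Non-overlap of 2 arrays with 2 arrays is common, so the counts have to be read against all probe sets. For testis below ovary at E16, 3 of the 3 genes had non-overlapping arrays, against 16.2% of all probe sets. For testis below ovary at E14 it was Tle6 alone, 1 of 3, against 16.2%. At E13 Tle6 alone did not overlap, 1 of 3, against 46.2% of all probe sets in either direction. From E13 to E16 in ovary, 2 of 3, Tex101 and Ybx2, did not overlap (41.4% of all probe sets in either direction), both being higher at E16; in testis 1 of 3, Tex101, was higher (18.9%) and 1 of 3, Tle6, lower (22.4%). In cultured against fresh E13 testis, 2 of 3, Ybx2 and Tle6, were lower (19.6%), and against fresh E16 testis 2 of 3, Ybx2 and Tex101 (15.8%). As the genes were chosen on these arrays, nothing is read from these shares.

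**Figure D2:**
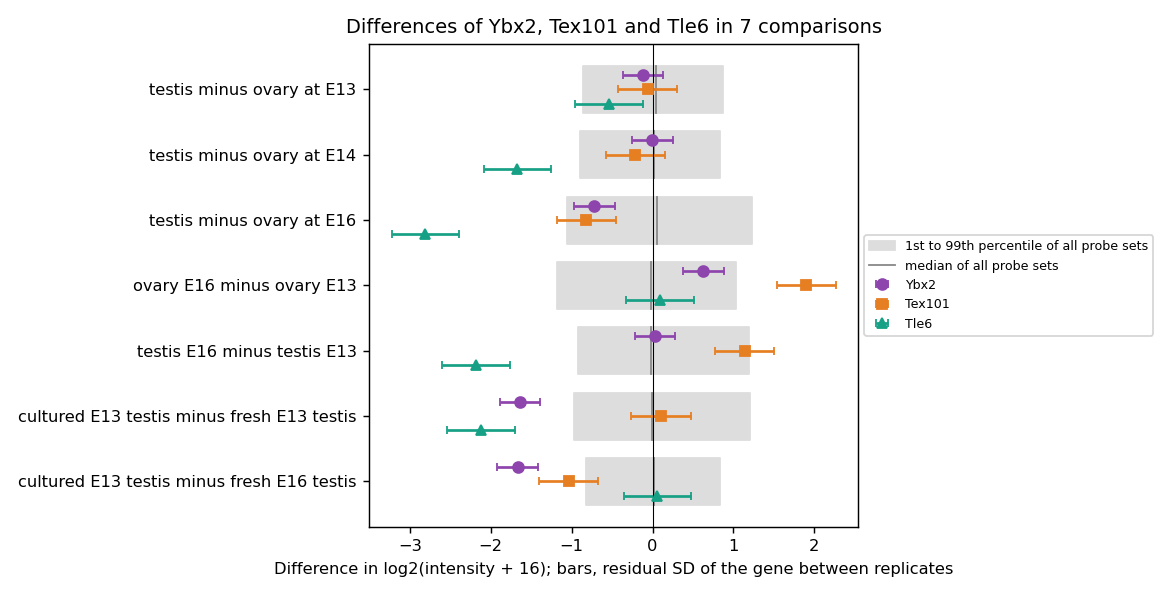
Difference in log2(intensity + 16) of Ybx2, Tex101 and Tle6 in 7 comparisons (x axis); error bars are the residual SD of each gene between replicates, grey bands run from the 1st to the 99th percentile of all 15866 probe sets and grey lines mark their median. Tle6 lies left of the band for testis minus ovary at E14 (-1.67) and E16 (-2.81), for E16 minus E13 testis (-2.18) and for cultured minus E13 testis (-2.12), Ybx2 in both comparisons of cultured testis (-1.64 and -1.67), and Tex101 right of it for E16 minus E13 ovary (1.90) and left of it for cultured minus E16 testis (-1.04).

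The 3 genes did not follow one pattern. Over the 14 arrays the correlation was r = 0.48 between Ybx2 and Tex101, 0.55 between Ybx2 and Tle6, and 0.11 between Tex101 and Tle6 (Spearman's rho 0.44, 0.51 and 0.17), given as a description of arrays that share groups and chip periods. Tex101 and Tle6 went opposite ways in the fresh testis, and in culture Tex101 read 71.2 or more while the 2 others were under 10. Germ cell identity could not be checked in depth: of 51 germ cell genes listed, 10 had a named probe set, and Ddx4, Dazl, Pou5f1 and Nanog were not among them and are not analysed here. Several of the 10, such as Kit, Gja1 and Pecam1, are also made by other cells of the gonad.

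The genes whose arrays were most like those of each gene were looked up among 6341 probe sets with 1 symbol and a group mean of at least 100. For Tex101 the 5 closest over 14 arrays were Utp4 (r = 0.95), Ntpcr (0.93), Sycp3 (0.93), Psme1 (0.91) and Aatf (0.91). Sycp3, a protein of the meiotic chromosome axis, read 18.9 and 20.8 in E13 ovary, 50.4 and 76.6 at E14, and 153 and 188 at E16. It met the group mean of 100 only in E16 ovary (171) and E16 testis (114). Those are the groups where Tex101 was highest, so the filter itself favours such a likeness. For Tle6 they were Lrrc42 (r = 0.95), Itpr1 (0.95), Gpi (0.94), Scn4b (0.94) and Nxt1 (0.93). Itpr1, a calcium channel of the endoplasmic reticulum, stood at 220 ± 1.3 in E16 ovary, 105 ± 5.7 in E16 testis and 94.7 ± 5.9 in cultured testis (SD, n = 2). For Ybx2 they were Tram1 (r = 0.86), Wipi2 (0.86), Ehd1 (0.85), Selenoh (0.85) and Cmss1 (0.85), with Spearman's rho of 0.84 for Tram1 and 0.51 to 0.60 for the others. Selenoh, a selenoprotein, stood at 526 ± 198 in cultured testis and at 1123 to 1427 in the means of the fresh groups.

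Sycp3 was among the 5 genes closest to Tex101, after a filter that it passed only at E16. The DNA just before the starts of both is shown for that reason, beside that of Tle6. The sequences come from RefSeq (build GRCr8) and span the 250 bases before an annotated start, 5′ to 3′ on the strand of the gene. Capitals mark the CCAAT box, the letters CCAAT or, on the other strand, ATTGG. An upstream window was found for 2 of the 3 genes, Tex101 and Tle6. Tle6 has 4 annotated starts. The windows of the first and the second are printed, and the matches in the other 2 are given below.
Tex101, chr1:89387341-89387590, minus strand: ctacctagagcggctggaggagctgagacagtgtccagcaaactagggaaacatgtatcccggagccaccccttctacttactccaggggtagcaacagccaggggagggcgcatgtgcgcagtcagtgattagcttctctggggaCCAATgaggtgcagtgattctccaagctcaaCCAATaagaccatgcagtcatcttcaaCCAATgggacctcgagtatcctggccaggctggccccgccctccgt
Sycp3, chr7:24761226-24761475, plus strand: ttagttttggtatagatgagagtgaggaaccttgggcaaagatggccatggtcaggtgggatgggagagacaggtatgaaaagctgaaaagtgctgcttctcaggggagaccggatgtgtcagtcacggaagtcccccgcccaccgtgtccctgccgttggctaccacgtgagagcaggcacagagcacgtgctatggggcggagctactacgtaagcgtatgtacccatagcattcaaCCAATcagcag
Tle6 first start, chr7:8757596-8757845, plus strand: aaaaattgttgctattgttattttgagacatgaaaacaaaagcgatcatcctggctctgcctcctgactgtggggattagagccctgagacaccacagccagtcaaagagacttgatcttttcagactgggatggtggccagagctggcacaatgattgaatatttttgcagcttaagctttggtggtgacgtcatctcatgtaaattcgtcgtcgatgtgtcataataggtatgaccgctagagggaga
Tle6 second start, chr7:8759420-8759669, plus strand: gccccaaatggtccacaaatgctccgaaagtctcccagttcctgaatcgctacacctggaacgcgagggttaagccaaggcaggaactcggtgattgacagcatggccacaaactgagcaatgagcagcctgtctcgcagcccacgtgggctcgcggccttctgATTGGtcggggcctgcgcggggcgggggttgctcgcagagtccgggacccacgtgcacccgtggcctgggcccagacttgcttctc

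The Tex101 window held 3 CCAAT boxes, which begin 104, 73 and 46 bases before the start. At least 1 was found in 34.0% of 33469 such windows of the rat genome, and 3 or more in 2.52%. The windows of Sycp3 and of the second Tle6 start held 1 each, and in both it was part of the longer Y box CTGATTGG (CCAATCAG on the other strand), the element after which the Y-box proteins are named; it was found in 3.19% of windows. That pair also held 2 E boxes CACGTG each (5.59% of windows have at least 1). The window of the first Tle6 start held no CCAAT box and 1 cyclic AMP response element TGACGTCA (1.59% of windows). The windows of the third and the fourth Tle6 start held no CCAAT box, Y box or cyclic AMP response element. The third held 1 E box and the fourth none. Each share is for 1 window and 1 element, so it understates how often a gene with several windows has a match. Such matches describe the letters and show no binding. GC content was 56.8% in the Tex101 window, 54.4% in that of Sycp3, 44.4% in that of the first Tle6 start and 62.8% in that of the second.

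Other genes of the germ line were tested with limma, a linear model with a shared estimate of spread over all 15866 probe sets, and an adjusted p under 0.05 (Benjamini-Hochberg) counted as passing. The lists of germ cell, oocyte, meiosis and sperm genes held 162 genes, of which 53 were measured. From E13 to E16 in ovary 5 of the 53 were higher and 0 lower, against 0.46% and 0.429% of all probe sets. In testis 3 were higher and 0 lower (0.706% and 0.24%). Their median log2 difference was -0.01 in ovary and 0.04 in testis, against -0.02 and -0.02 over all probe sets. The other 48 and 50 genes did not pass.

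In the ovary the 5 genes were Sycp3, Sycp2, Stag3, Asz1 and Tdrd7. Sycp3 and Sycp2 build the axis of meiotic chromosomes and Stag3 is a cohesin subunit of meiosis. Sycp3 differed by 2.37 ± 0.27 (SE; adjusted p = 0.00284 by limma), from 19.9 ± 1.3 to 171 ± 25.0 (SD, n = 2). Asz1 and Tdrd7 act in the granules of germ cells that guard against transposons and process RNA; Asz1 read 12.6 and 9.5 at E13 and 71.5 and 80.4 at E16 (adjusted p = 0.0336 by limma), and Tdrd7 62.7 and 60.8 at E13 and 131 and 123 at E16 (adjusted p = 0.0464 by limma). The E16 ovary arrays of all 5 lay above those of E13. These genes were picked as higher at E16, so this likeness to Tex101 follows from the choice. Sycp3 lost its call without E13 ovary replicate 1, Sycp2 without any single array of E13 or E16 ovary, Asz1 without any of these or either array of E16 testis, and Stag3 and Tdrd7 in most fits that left out 1 array, and 0 of the 5 passed without the 4 arrays with discordant Xist, a fit of fewer arrays in which 0 of all probe sets passed in this comparison.

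In testis the 3 genes that rose from E13 to E16 were Sycp3 (log2 1.63, adjusted p = 0.0168 by limma), Stag3 (2.05, adjusted p = 0.00456) and Jag1, a Notch ligand on the oocyte list (1.89, adjusted p = 0.00537). Sycp3 lost its call without E13 testis replicate 1 or either E16 testis array, Stag3 without E16 testis replicate 2, and Jag1 without E13 or E16 testis replicate 2. In cultured testis 2 of the 53 were higher than in fresh E13 testis, Stag3 (1.37, adjusted p = 0.0307) and Jag1 (1.77, adjusted p = 0.00628), and 0 lower, against 1.06% and 0.334% of all probe sets. Stag3 lost that call in 7 of 14 fits that left out 1 array, and Jag1 without E13 testis replicate 2. Sycp3 stood at 39.9 ± 10.4 (SD, n = 2) in cultured testis and 26.9 ± 12.8 in fresh E13 testis and did not pass (adjusted p = 0.616 by limma). Against fresh E16 testis 0 of the 53 passed by limma at their brightest probe sets (0.0945% of all probe sets in either direction), with 9 at an unadjusted p under 0.05.

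**Figure D3:**
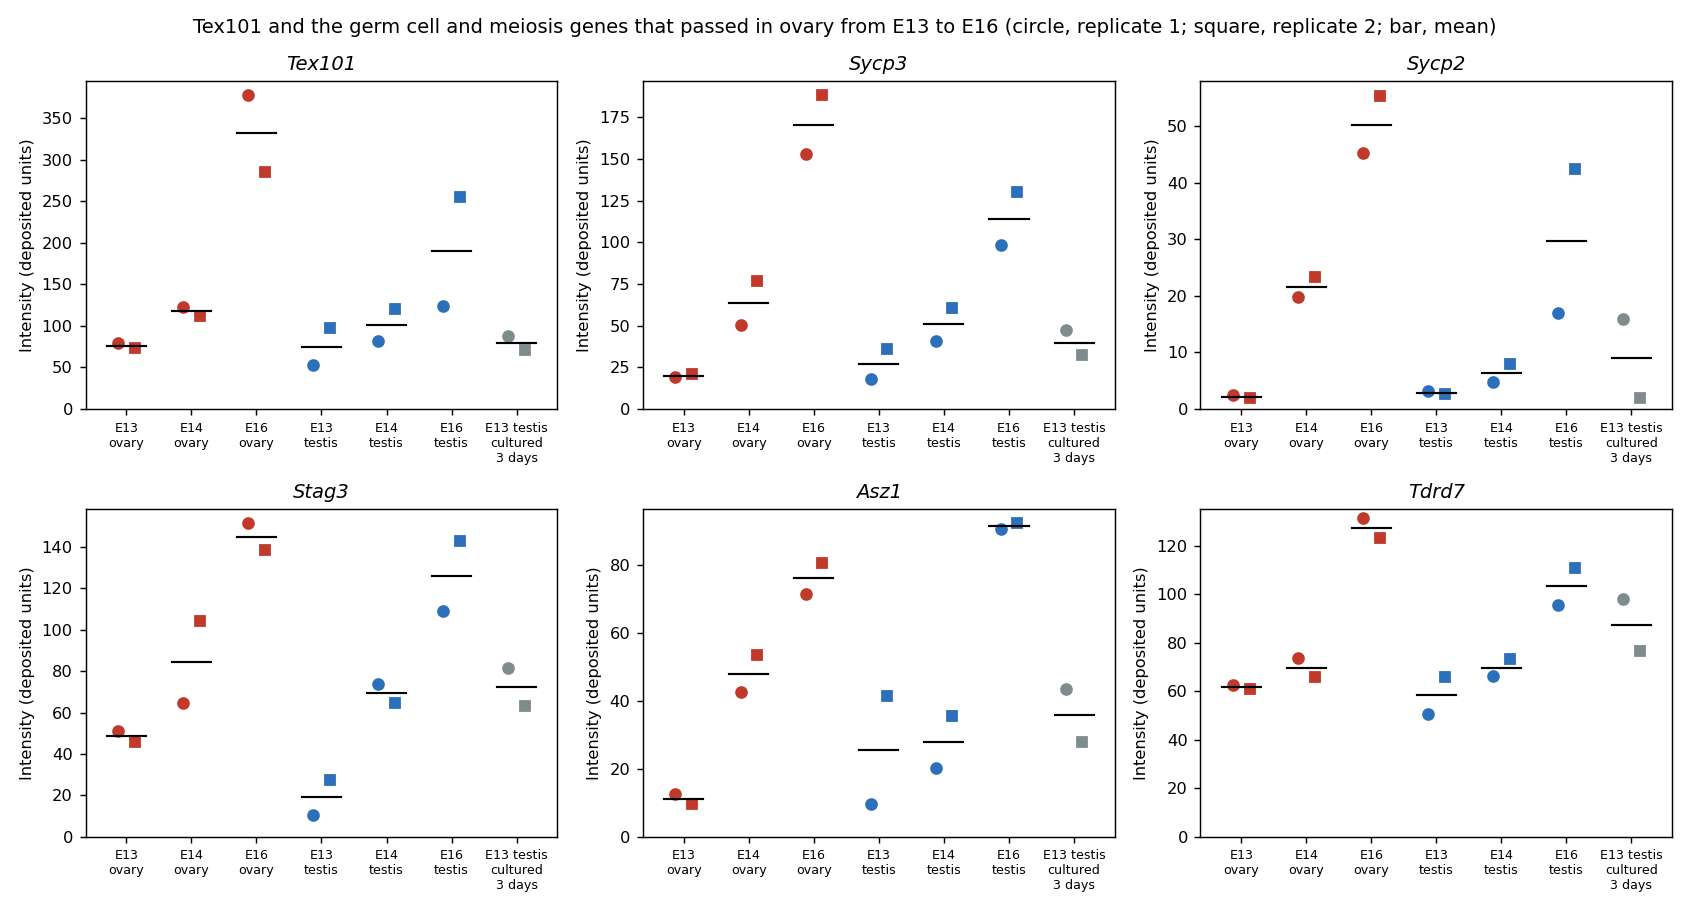
Intensity (deposited units, linear axes from 0) of Tex101 and of the 5 germ cell and meiosis genes that passed from E13 to E16 in ovary, in each of the 14 arrays; circles are replicate 1, squares replicate 2 and bars the mean of 2 arrays. In all 6 panels both E16 ovary arrays lie above both E13 ovary arrays, which for the 5 genes follows from how they were picked. The cultured arrays lie below the E16 ovary arrays in all 6.

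Between testis and ovary at E16, 1 of the 53 germ line genes was higher in testis, Jag1 (log2 1.85, adjusted p = 0.00435 by limma), and 1 lower, the chemokine receptor gene Cxcr4 (-1.23, adjusted p = 0.0148), against 1.01% and 0.725% of all probe sets. The 2 other probe sets of Cxcr4 passed in the same direction (adjusted p = 0.0201 and 0.0011 by limma). These dimmer probe sets stand outside the counts, which use the brightest of each gene; the second of them was also lower in E16 than in E13 testis (-1.15, adjusted p = 0.00719) and higher in cultured than in fresh E16 testis (1.26, adjusted p = 0.0199), where the brightest did not pass (-0.87 and 1.09, adjusted p = 0.0974 and 0.195). Cxcr4 lost its call without either E16 ovary array or E16 testis replicate 2, and Jag1 kept it in all 14 such fits. Jag1 is counted here by its place on the oocyte list, and which cells made it was not tested. It stood at 118 ± 11.4 in E16 testis and 108 ± 29.3 in cultured testis (SD, n = 2). In these groups the summed Leydig cell genes and the summed Sertoli cell genes, given below, were also highest. Without the 4 arrays with discordant Xist, 0 of the germ line genes passed in any of these comparisons. At E13 and at E14, 0 of the 53 passed by limma, with 5 and 4 at an unadjusted p under 0.05 and 0.0126% and 0.139% of all probe sets passing in either direction. Of 25 measured sperm genes, 0 passed in any of the 7 comparisons by limma, with 0 to 2 at an unadjusted p under 0.05, and 20 had a mean intensity under 50. The brightest was Odf2, a protein of the sperm tail fibres that is also part of the centrosome of other cells.

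Marker lists of other cells moved with age and sex beside Tex101 and Tle6, and their part in these results was not tested. The summed intensity of 16 Sertoli cell genes was 1896 to 2548 in the ovary arrays and 2037 to 2275 in E13 testis. It was 3703 to 3779 in E14 testis, 5047 to 5167 in E16 testis and 4544 to 5208 in cultured testis. The brightest in E16 testis were Aard, Amh and Tsx (means 1514, 953 and 656). In testis against ovary at E16, 7 of the 16 were higher by limma, 1 (Ptgds) was lower and 8 did not pass. The shares of all probe sets were 1.01% higher and 0.725% lower. The summed intensity of 11 pre-granulosa genes was 1561 to 2092 in E16 ovary and 671 to 876 in E16 testis. In that comparison 2 of the 11 were lower in testis, 0 higher and 9 did not pass. The 14 genes of the mesonephros and epithelium list summed to 2587 to 3306 in E16 ovary, 908 to 1006 in E16 testis and 620 to 974 in cultured testis, and Krt19 and Podxl, which make up most of that sum in E16 ovary, were lower in testis at E16 (log2 -2.89 and -1.87, adjusted p = 0.00299 for both by limma). The other 12 genes of the list did not pass, and its median difference was -0.08. The call of Podxl rests on its brightest probe set. Its 2 dimmer probe sets did not pass there (0.06 and 0.17, adjusted p = 0.945 and 0.8 by limma). The 9 Leydig cell genes, of steroid synthesis and its control, summed to 465 to 488 in E16 ovary, 467 to 509 in E13 testis and 487 to 536.5 in E14 testis. Their sum was 5195 to 9753 in E16 testis and 5018 to 6250 in cultured testis, the groups where both arrays of Tle6 were under 10. In E14 testis Tle6 read 45.8 and 6.6. At an adjusted p under 0.05 by limma, all 9 Leydig cell genes were higher in testis than in ovary at E16 (1.01% of all probe sets). Of the 9, 8 were higher in E16 than in E13 testis (0.706%) and 6 in cultured than in fresh E13 testis (1.06%). The 7 meiosis genes summed to 493 to 532 in E13 ovary, 714 to 863 in E16 ovary, 714 to 778 in E16 testis and 513 to 574 in cultured testis. The 8 red blood cell genes spread widely, from 1113 to 11472 in the 2 cultured arrays. No gene of these lists read 0 in any array.

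The closest relatives of each gene were measured beside it. For Tle6, the brightest probe sets of the corepressor genes Tle1 to Tle5 read 66.8 to 457 over all arrays, and 0 of the 5 passed in any of the 7 comparisons by limma. At E16 their log2 differences of testis minus ovary were -0.05, -0.27, -0.23, 0.04 and -0.33 for Tle1 to Tle5, against -2.81 for Tle6; cultured minus fresh E13 testis they were 0.39, 0.49, -0.22, -0.09 and -0.14. Of the other 5 genes on that list, which hold partners of the family, Hes1, a Notch target, was higher in testis at E16 (log2 1.32, adjusted p = 0.00676 by limma) and Hes6 was higher in cultured than in fresh E13 testis (0.93, adjusted p = 0.0442). Hes1 lost its call without E16 ovary replicate 1 or E16 testis replicate 1, and Hes6 in 13 of 14 fits that left out 1 array.

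**Figure D4:**
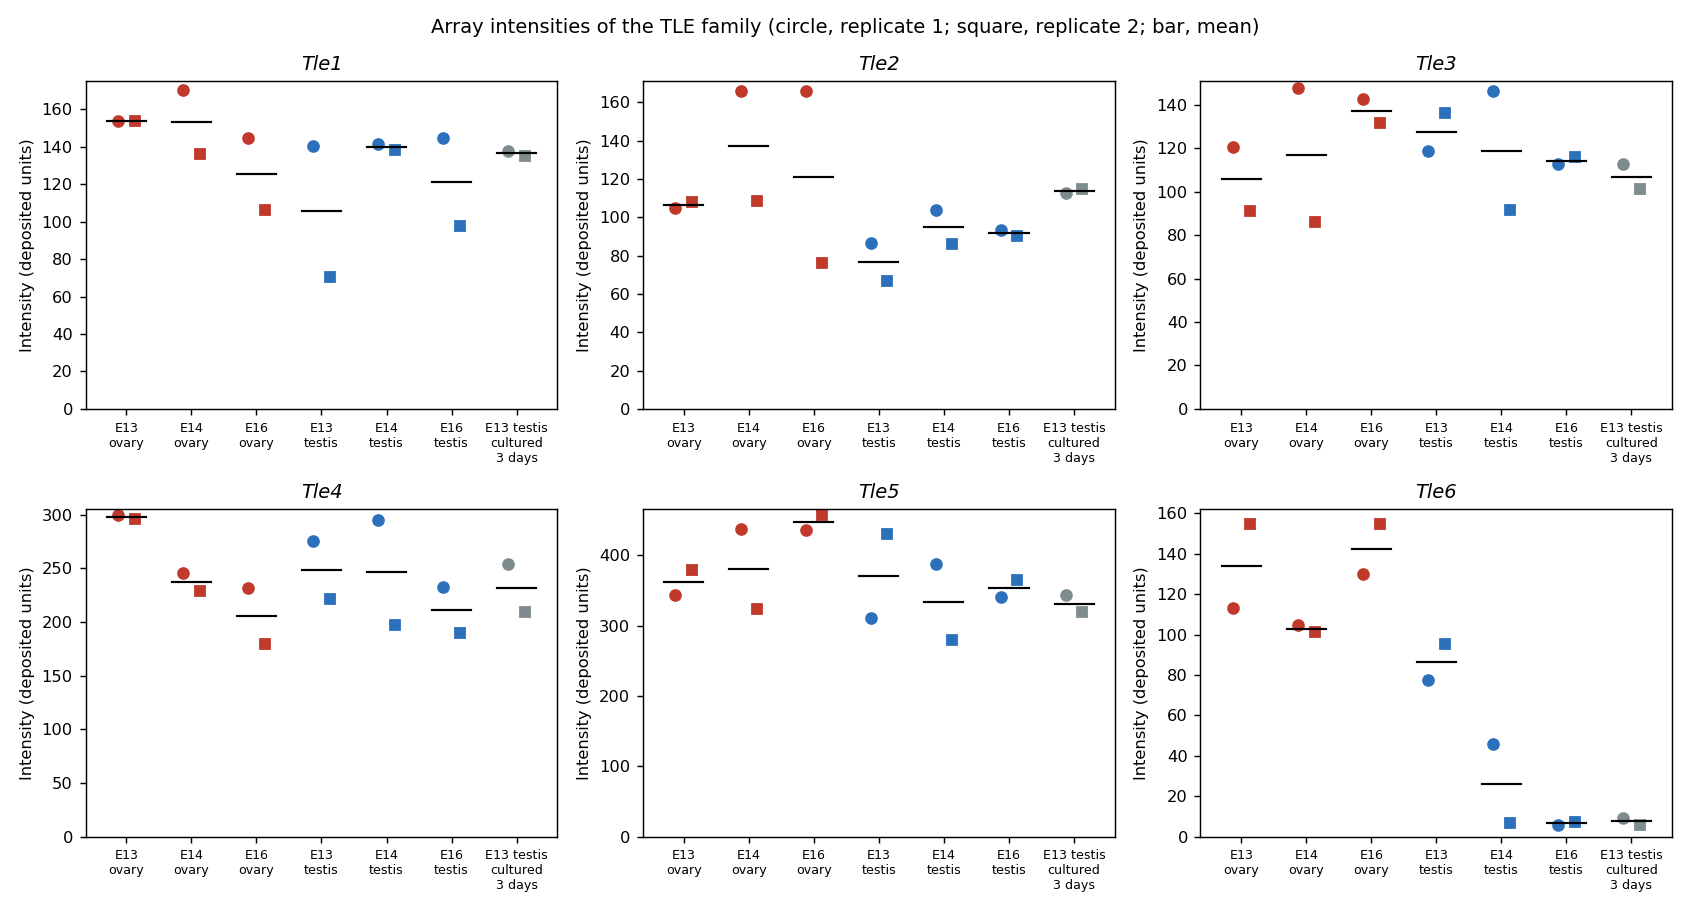
Intensity (deposited units, linear axes from 0) of Tle1 to Tle6 in each of the 14 arrays, by group; circles are replicate 1, squares replicate 2 and bars the mean of 2 arrays. Tle6 is under 10 in E16 and cultured testis, while Tle1 to Tle5 read 66.8 or more in every array.

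Among the partners of Tle6 in the subcortical maternal complex, Ooep and Zbed3 were measured, 2 of 5 listed. Ooep read 27.5 and 21.4 in E13 ovary, 61.3 and 62.1 in E16 ovary, 34.8 and 64.3 in E13 testis, and 26.7 and 17.0 in E16 testis. The E16 sex difference was -1.05 and did not pass (adjusted p = 0.0542 by limma). Zbed3 read 124 and 126 in E16 ovary and 167 and 113 in E16 testis. Of the 11 oocyte genes measured, Jag1 alone passed in any comparison. Zp2, of the egg coat, differed by -1.23 between testis and ovary at E16 without passing (adjusted p = 0.232 by limma), while Zp1, Zp3, Bmp15 and Mos read at most 21.1 in every array.

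For Ybx2, its relative Ybx3 read 234 and 114 in the cultured testes and 166 to 306 elsewhere, with a log2 difference of -0.36 between cultured and fresh E13 testis (adjusted p = 0.703 by limma). Of 11 measured genes for Y-box and other RNA-binding proteins, 0 passed in any of the 7 comparisons by limma, with 0 to 3 at an unadjusted p under 0.05. The brightest of them were Pabpc4, Elavl1, Pum2 and Lsm14a, whose differences between cultured and fresh E13 testis were -0.14, -0.35, 0.08 and 0.02. Cpeb1, which controls stored messenger RNA in oocytes, read 86.9 and 106 in E13 ovary and 281 and 161 in E16 ovary. The log2 difference of 1.03 did not pass (adjusted p = 0.412 by limma). In testis it read 45.5 and 53.7 at E13 and 155 and 208 at E16, a difference of 1.58 that did not pass either (adjusted p = 0.148 by limma).

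For Tex101, 16 genes of the Ly6 and uPAR family were measured. From E13 to E16 in ovary 0 of the 16 passed by limma, with 4 at an unadjusted p under 0.05, and their median difference was 0.05, against 1.90 for Tex101. In testis Lypd8 was lower at E16 (log2 -0.84, adjusted p = 0.0435 by limma). Cd59b, which shields cells from complement, was higher in testis than in ovary at E16 (1.92, adjusted p = 0.00616), where Tex101 differed by -0.82. Lypd8 lost its call in 12 of 14 fits that left out 1 array, and Cd59b without E16 testis replicate 2. A dimmer probe set of Ly6l was lower in testis than in ovary at E14 (-1.69, adjusted p = 0.00605) and E16 (-1.50, adjusted p = 0.00371). It was also lower in E16 than in E13 testis (-1.44, adjusted p = 0.00633), where Tex101 differed by 1.14, and in cultured than in fresh E13 testis (-1.52, adjusted p = 0.00405). Another probe set of Ly6l passed in the last of these alone (-1.03, adjusted p = 0.0497), and the brightest did not pass at E16 (0.09, adjusted p = 0.893). Ly6e, the brightest member, read 892 and 692 in E16 ovary and 411 and 374 in E16 testis without passing (adjusted p = 0.149).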

How the data were processed

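The deposited values are intensities, 1 per probe set and array, scaled by the authors so that the mean after trimming 2% at each end is 125 on every array, as the values themselves show. Labelled RNA was hybridised to rat Affymetrix arrays, per the labels' protocols; the summarising software is not given in the sources used here. Of 15923 probe sets, 57 controls were left out; 12783 of the rest have 1 gene symbol, 312 several and 2771 none. No detection calls or counts were used, and the number of arrays limits precision. Differences were computed on log2(intensity + 16). Groups were compared in 1 linear model (limma 3.58.1 under R 4.3.3, moderated statistics over 14 arrays, 7 groups, Benjamini-Hochberg over 15866 probe sets, adjusted p under 0.05), checked on simulated data. Figures were drawn with matplotlib 3.10.9.

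The 3 genes and the gene lists were chosen with earlier results of these data known. A listed gene is represented by its brightest probe set and named where it passed a comparison, or, in lists where none passed, among the 4 brightest; Ooep, Zbed3, the Zp genes, Bmp15, Mos, Cpeb1, Ybx3, Tle1 to Tle5, Ly6e, Ly6l, Krt19 and Podxl were named after their values were seen. Alternatives were another added constant, quantile normalization, a filter on dim probe sets, the replicate number as a block, chip period as a term, and leaving out arrays.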

Additional observations from a re-analysis of the deposited data

Results flagged for a closer look

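The sex difference of Jag1, a Notch ligand on the oocyte list, differed between ages. Testis minus ovary was -0.54 at E13 and 1.85 at E16 on the log2(intensity + 16) scale, and the test of the change, an interaction term in limma, gave 2.39 (adjusted p = 0.0339). Jag1 read 44.0 and 29.3 in E13 ovary, 28.2 and 13.1 in E13 testis, 26.2 and 16.5 in E16 ovary, and 126 and 109.5 in E16 testis.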

How the results depend on the processing

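Of 462 recomputed differences of the 3 genes, 426 stayed within 1 residual SD, and 196 of 308 recomputed counts stayed within 1.5 times. Many of the 462 could not move. Leaving out an array from outside a comparison, the replicate block and the dim filter all leave a difference of group means unchanged. The share of 426 is therefore no measure of robustness. With an added constant of 1 or 64, Tle6 differed by -3.38 or -1.07 between cultured and fresh E13 testis, -3.53 or -1.09 between E16 and E13 testis, -2.46 or -0.92 between the sexes at E14 and -4.25 or -1.55 at E16; Ybx2 differed by -2.91 or -0.74 between cultured and E13 testis and -2.95 or -0.76 between cultured and E16 testis; with 64, Tex101 differed by 1.49 between E16 and E13 ovary. With chip period as a term, Ybx2 differed by -1.29 between cultured and E13 testis, 0.38 between E16 and E13 testis, and 0.35 and -0.37 between the sexes at E14 and E16.

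2 alternatives were chosen after seeing the data. Without the 4 arrays with discordant Xist, Tex101 differed by -0.37 between cultured and E13 testis, Tle6 by -2.40 between the sexes at E14, and Ybx2 by -1.34 between cultured and E13 testis, 0.90 between E16 and E13 ovary and -0.99 between the sexes at E16. Without the 2 arrays with the highest actin ratio, Ybx2 differed by 0.36 and -0.45 in the last 2. Where only 1 of the arrays left out belonged to a comparison, the value is the same as without that array alone. Leaving out 1 array moved Tex101 from -1.51 to -0.56 for cultured against E16 testis, 0.66 to 1.62 for E16 against E13 testis and -1.30 to -0.34 for the sexes at E16, Tle6 from -2.40 to -0.94 for the sexes at E14, and Ybx2 from 0.36 to 0.90 for E16 against E13 ovary and -0.99 to -0.45 for the sexes at E16.

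Probe sets passing between cultured and E13 testis (221) became 106 with a constant of 1, 378 with chip period, 5 without the Xist arrays, 52 without the actin arrays and 49 to 211 without 1 array. Between cultured and E16 testis (15) they became 7 with 1, 9 with 64, 2 without the actin arrays and 3 to 32 without 1 array. Between E16 and E13 ovary (141) they became 60 with 1, 276 with the replicate block, 0 without the Xist arrays (by limma), 84 without the actin arrays and 8 to 145 without 1 array. Between E16 and E13 testis (150) they became 94 with 1, 252 with chip period, 6 without the Xist arrays and 22 to 155 without 1 array. Between the sexes at E13 (2) they became 1 with 64 and with the dim filter, 0 without the Xist or the actin arrays and 0 to 2 without 1 array. At E14 (22) they became 11 with 1, 36 with the replicate block, 35 with chip period, 0 without the Xist arrays, 14 without the actin arrays and 1 to 32 without 1 array. At E16 (276) they became 167 with 1, 14 without the Xist arrays, 132 without the actin arrays and 62 to 307 without 1 array.

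Germ line genes passing between cultured and E13 testis (2) became 1 with either constant, with chip period and without the actin arrays, 0 without the Xist arrays and 1 to 2 without 1 array. Between E16 and E13 ovary (5) they became 2 with a constant of 1, with chip period and without the actin arrays, 3 with quantile normalization and with the dim filter, 0 without the Xist arrays and 0 to 4 without 1 array. Between E16 and E13 testis (3) they became 0 without the Xist arrays and 0 to 4 without 1 array, and between the sexes at E16 (2) 0 without the Xist arrays, 1 without the actin arrays and 1 to 3 without 1 array. The cause was not tested; leaving out arrays also leaves fewer samples.

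Deviations of same-numbered arrays from their group means correlated at r = -0.053 to 0.53 over the 21 pairs of groups and at -0.020 to 0.28 over the 7 pairs compared. Of the 21, 15 were over 0.1, and the 6 that were not are the pairs with E13 ovary. The numbers were therefore not taken to pair all arrays, although most groups deviated together. Replicate number ran with chip period. In every group but E13 ovary, replicate 2 was of chip period 1 and replicate 1 of period 2 or 3. Both E13 ovary arrays were of period 3. Neither these correlations nor the replicate block can therefore tell replicate number from chip period. The replicate block could not change the 3 genes' differences, since every group holds both replicate numbers. It moved the counts as given above.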
